A study of Ictidomys tridecemlineatus with 15 samples.

Results

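Some proteins carry thyroid hormone and glucocorticoid in blood, convert them in the cell or receive them in the nucleus. Transcription of their genes was followed through the torpor-arousal cycle of the 13-lined ground squirrel liver. Neither steady-state RNA nor protein was measured here. The genes were looked up by 9 symbols: Serpina7, Ttr, Dio1, Thrb, Thra, Serpina6, Nr3c1, Hsd11b1 and Fkbp5. Of these, 8 symbols matched a counted transcription unit by name, Serpina7 matched 2 units, and Serpina6, which encodes corticosteroid-binding globulin, matched none and was dropped. This left 9 units of the 6324 counted, 6 of them naming 1 gene and 3 merged with neighbouring genes.

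Nascent transcription was measured by global run-on sequencing (GRO-seq), in which nuclei are isolated and the RNA polymerases at work in them extend their transcripts with a labelled base, so that reads report transcription in progress. Every animal was a female from a breeding colony and housed in the laboratory, and livers were frozen at collection. The study measured body temperature with an implanted device or a rectal probe. The labels name no genotype or drug for any group. The states were SA, summer active and homeothermic before hibernation; IBA, aroused between torpor bouts; Ent, entering torpor; ET, early in torpor; and LT, late in torpor. LT holds 2 animals and every other state 3, with 1 library per animal. LT replicate 2 is labelled but was left out by the authors, so the LT libraries are replicates 1 and 3.

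Between 3713883 and 8884763 reads per library fell on the counted units. Levels are given as CPM, counts scaled to each library's effective size by the TMM method. Levels of different genes are compared only as CPM per kb of unit. CPM is relative to the other units of the same library, and so is every rise or fall given here. The study states that scaling by library size hides changes in total transcription between states, and that total was not measured here. At an adjusted p of 0.05, 9 of the 12 units of the hepatocyte marker list were lower in LT than in IBA and 0 higher. Among all units 25.0% were lower and 24.8% higher. Only 7 of 47 marker symbols of other liver and blood cell types had a unit. Of 3 endothelial units, Kdr and Pecam1 were also lower in LT, as was Sox9 (log2 fold change -1.48, adjusted p = 0.0063), 1 of 2 cholangiocyte units, and the lymphocyte and erythroid list had 0 units. The summed hepatocyte list spanned 24143 to 33211 CPM in IBA and 8462 to 12883 CPM in LT. In whole liver, fewer cells of a type and less transcription per cell cannot be told apart. ET animals came from a season of collection of their own, and no season held both IBA and LT animals. Season and state therefore cannot be told apart directly in comparisons with ET or between IBA and LT. Fits with season as a term left out ET and took the season effect from SA and Ent, the only states spread over seasons. Season values for IBA to LT depend on those SA and Ent animals.

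Thyroid hormone reaches the liver bound to thyroxine-binding globulin, the product of Serpina7, to transthyretin, the product of Ttr, and to albumin. In the hepatocyte, type 1 deiodinase, encoded by Dio1, converts the prohormone thyroxine into the active hormone, which binds the nuclear receptors encoded by Thrb, the main liver form, and Thra. Glucocorticoid acts in a parallel way: 11beta-hydroxysteroid dehydrogenase type 1, encoded by Hsd11b1, regenerates the active steroid, the receptor encoded by Nr3c1 binds it, and Fkbp5, a co-chaperone that is itself a classical target of the receptor, lowers the receptor's affinity for the hormone.

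Across all 5 states tested together in edgeR, 4 of the 9 units passed an adjusted p of 0.001 and 7 passed 0.05, against 25.5% and 62.0% of all 6324 units. From IBA to LT, 3 of 9 passed 0.001 and 6 passed 0.05, where 17.4% and 49.8% of all units did. Of those 6, Serpina7's units, Ttr, Dio1 and Thrb were lower in LT and Thra was higher. Among all units 25.0% were lower and 24.8% higher at 0.05, so that 49.8% of the calls were higher. Scaling to uniquely mapped reads raised that share to 62.6% and shifted the median of all units to 0.14, without turning the direction of any of the 6. The median log2 fold change from IBA to LT was -0.56 over the 9 units and -0.05 over all units.

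**Figure D1:**
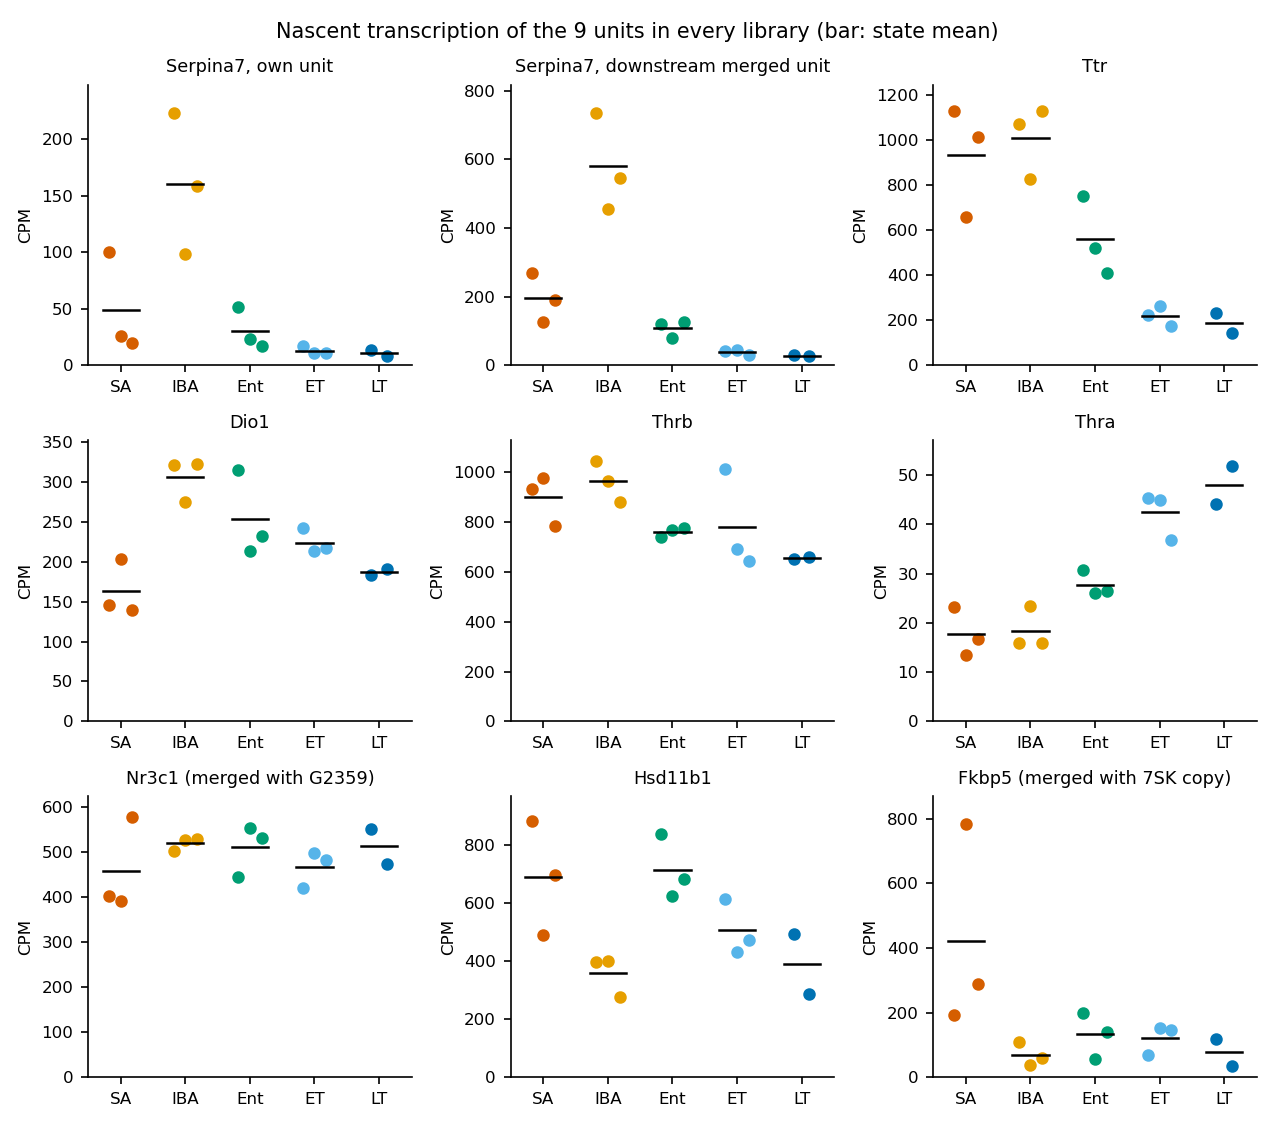
CPM (y axis, linear from 0) of each of the 9 units in each library, by state (x axis). Points are animals and bars are state means. The Serpina7 units and Ttr sit lowest in ET and LT, Thra sits highest there, and Nr3c1 lies between 392 and 579 CPM throughout.

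The 2 Serpina7 units showed the widest range of state means among the 9 units, 14.7-fold and 20.4-fold. These are values of transcription, not of RNA or protein, and for Serpina7 the study reported highest steady-state RNA where transcription was lowest. The unit of Serpina7 alone is 7294 nt long and spans Itri10:79081977-79089270 (minus strand) in the HiC_Itri_2 assembly, to which all positions refer. It held 100.02, 26.1 and 19.7 CPM in the SA libraries, 223, 98.2 and 159 CPM in IBA, 51.2, 23.7 and 17.0 CPM in Ent, 17.2, 11.2 and 10.9 CPM in ET, and 13.6 and 8.10 CPM in LT. All IBA libraries were above all Ent libraries, and both LT libraries were below every library of SA, IBA and Ent, while SA replicate 1 stood slightly above the lowest IBA library. The lowest value, in LT, rests on 55 reads.

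From IBA to Ent this unit fell by 2.38 on the log2 scale (SE 0.58, adjusted p = 0.018). With season in the fit that fall was 3.55 on the log2 scale (adjusted p = 0.014), and without Ent replicate 1 the log2 fold change was -2.97 (adjusted p = 0.016). From IBA to LT it fell by 3.88 (SE 0.75, adjusted p = 0.0011), a 14.7-fold lower level that passed 0.05 but not 0.001. Without LT replicate 1 or 3 its adjusted p was 0.012 or 0.019, and with season in the fit the log2 fold change was -5.48 (adjusted p = 0.00064). The rise from SA to IBA, 1.73 with an interval of 0.48 to 2.97, had an adjusted p of 0.10 and passed neither threshold. Within the season that held 2 SA and 3 IBA animals, the difference was 2.74. The fall from IBA to Ent had an adjusted p of 0.069 without IBA replicate 1, 0.066 without Ent replicate 2 and 0.069 without Ent replicate 3.

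A second, longer unit lies downstream on the same strand, 9703 nt away, at Itri10:78985507-79072273. It is 86767 nt long and joins Serpina7 by name with the unnamed genes G4250 and G4257, so its reads cannot be divided among them. Its values were 269, 128 and 189.6 CPM in SA, 736, 456 and 547 CPM in IBA, 119.7, 80.4 and 125 CPM in Ent, 40.8, 44.0 and 30.2 CPM in ET, and 29.9 and 27.0 CPM in LT. No library of any state overlapped the range of another state.

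This longer unit rose from SA to IBA by 1.57 (SE 0.27, adjusted p = 0.0062), fell from IBA to Ent by 2.42 (SE 0.28, adjusted p = 0.0017) and was a further 2.83-fold lower in ET than in Ent (SE of the log2 fold change 0.28, adjusted p = 0.0022). From ET to LT the log2 difference was -0.43, with an interval of -1.11 to 0.25. Between IBA and LT the unit fell by 4.35 (SE 0.37, adjusted p = 8.7e-06), the largest change among the 9 units, a 20.4-fold lower level. The rise from SA to IBA was 1.87 within the season that held 2 SA and 3 IBA animals. Per kb, the shorter unit exceeded the longer one in every library, by 1.24 to 5.41 times, with state means of 2.70 ± 1.61 (SD, n = 3) in SA and 4.49 ± 1.30 (SD, n = 2) in LT.

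Ttr, at Itri13:53619466-53633546 on the minus strand, was transcribed at 1126, 656 and 1014 CPM in SA, 1071, 825 and 1126 CPM in IBA, 751, 519.6 and 412 CPM in Ent, 223, 262 and 176 CPM in ET, and 231 and 145 CPM in LT. SA and IBA libraries overlapped, and all 5 torpor libraries were below every warmer library. The fall from Ent to ET was 1.35 (SE 0.28, adjusted p = 0.0039), and the fall from IBA to LT was 2.42 (SE 0.33, adjusted p = 0.00012), a 5.36-fold lower level. From SA to IBA the difference was 0.11, with an interval of -0.47 to 0.70. The fall from IBA to LT had an adjusted p of 0.0011 without LT replicate 1 and 0.0028 without LT replicate 3, above 0.001 but under 0.05.

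The balance of transcription between the carrier genes was read within each library. In IBA the level of Ttr per kb was 3.50 ± 0.95 times (SD, n = 3) that of the shorter Serpina7 unit, with libraries between 2.48 and 4.35. All other libraries lay between 5.83 and 26.6 times. These ratios are descriptions and were not tested.

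Dio1, at Itri11:68166683-68193791 on the plus strand, had its lowest mean in SA, with 146, 204 and 139 CPM. It stood at 321, 274 and 323 CPM in IBA, 315, 214 and 233 CPM in Ent, 242, 213 and 217 CPM in ET, and 184 and 191 CPM in LT. IBA did not overlap SA, ET or LT, whereas LT lay within the range of SA. Dio1 rose from SA to IBA by 0.91 (SE 0.17, adjusted p = 0.0097), a 1.88-fold higher level, and fell from IBA to LT by 0.71 (SE 0.20, adjusted p = 0.0098), a 1.63-fold lower level. Both passed 0.05 and not 0.001. The rise had an adjusted p of 0.052 without IBA replicate 3, and the fall one of 0.067 without LT replicate 1 and of 0.11 with season in the fit. Within the season of 2 SA and 3 IBA animals the rise was 0.86.

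The thyroid receptor genes had log2 fold changes of opposite sign between IBA and LT. Thrb spans 227532 nt on the minus strand, at Itri2:182619927-182847458. Its levels were 933, 977 and 783 CPM in SA, 1042, 965 and 881 CPM in IBA, 738, 766 and 774 CPM in Ent, 1011, 690.0 and 641 CPM in ET, and 649.7 and 659 CPM in LT. Both LT libraries were below all IBA libraries, while ET replicate 1 lay within the IBA range. Among the 5 states Thrb did not pass (adjusted p = 0.11). From IBA to LT it fell by 0.56 (SE 0.19, adjusted p = 0.029), a 1.47-fold lower level, and the adjusted p was 0.12 without LT replicate 1, 0.10 without LT replicate 3, 0.080 without IBA replicate 1 and 0.060 without IBA replicate 2. Scaling to uniquely mapped reads gave a log2 difference of -0.37 (adjusted p = 0.10), total counts one of -0.45 (adjusted p = 0.052) and season in the fit one of -0.54 (adjusted p = 0.070).

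Thra, at Itri7:21869106-21886298 on the minus strand, held 23.1, 13.5 and 16.8 CPM in SA, 15.9, 23.4 and 16.0 CPM in IBA, 30.8, 26.0 and 26.5 CPM in Ent, 45.4, 45.0 and 36.9 CPM in ET, and 44.1 and 51.8 CPM in LT. Every Ent library was above every SA and IBA library, and every torpor library was above every Ent library. Thra rose from IBA to LT by 1.38 (SE 0.24, adjusted p = 0.00052), a 2.60-fold higher level. From Ent to ET it rose by 0.61 (SE 0.21, adjusted p = 0.049), a call kept without SA replicate 1, SA replicate 2 or IBA replicate 2 and lost without each other library (adjusted p of 0.054 to 0.12) and with upper-quartile scaling (0.063). The rise from IBA to LT was 1.49 (adjusted p = 0.0031) without LT replicate 1, 1.26 (0.0066) without LT replicate 3, 1.29 (0.0031) without IBA replicate 1 and 1.28 (0.0034) without IBA replicate 3, all under 0.05 and above 0.001. With season in the fit it was 1.08 (adjusted p = 0.027).

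The Thra unit overlaps the unit of Nr1d1, a clock repressor gene encoded on the opposite strand, by 2259 nt, which is 13.1% of the Thra unit and 23.6% of the Nr1d1 unit. The GRO-seq reads keep their strand, and the study merged genes that overlap, yet these units stand apart in the deposited table. The strand setting used in counting is not given in the sources used here. Nr1d1 ranged from 29.2 to 116 CPM in SA, from 11.9 to 53.1 CPM in IBA, from 28.4 to 58.6 CPM in Ent, from 138 to 296 CPM in ET and from 136 to 165 CPM in LT, and in 4 of the 5 states the library highest in Nr1d1 was also the one highest in Thra. An even spread of Nr1d1 reads over its unit would place 32.1 to 69.8 CPM in the overlap in the torpor libraries, 6.69 to 13.8 CPM in Ent, 2.81 to 12.5 CPM in IBA and 6.87 to 27.4 CPM in SA. In SA replicate 1 and ET replicate 1 that even share, 27.4 and 69.8 CPM, was larger than the whole Thra value of 23.1 and 45.4 CPM. Nr1d1 was higher in SA than in IBA and Ent in its highest library, whereas Thra in SA overlapped IBA and lay below Ent. The part of Nr1d1 in the Thra values was not tested.

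The ratio of Thrb to Thra per kb gave each library a value of its own that does not depend on scaling between libraries. It was 3.05, 5.48 and 3.53 in SA, 4.95, 3.12 and 4.17 in IBA, 1.81, 2.23 and 2.20 in Ent, 1.68, 1.16 and 1.31 in ET, and 1.11 and 0.96 in LT. Ent libraries lay below all SA and IBA libraries, ET below Ent, and LT below ET. In LT 1 library had more Thra than Thrb per kb. The ratio was chosen with the receptors' values known and is given without a test. As for Thra, any part of Nr1d1 in it was not tested.

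**Figure D2:**
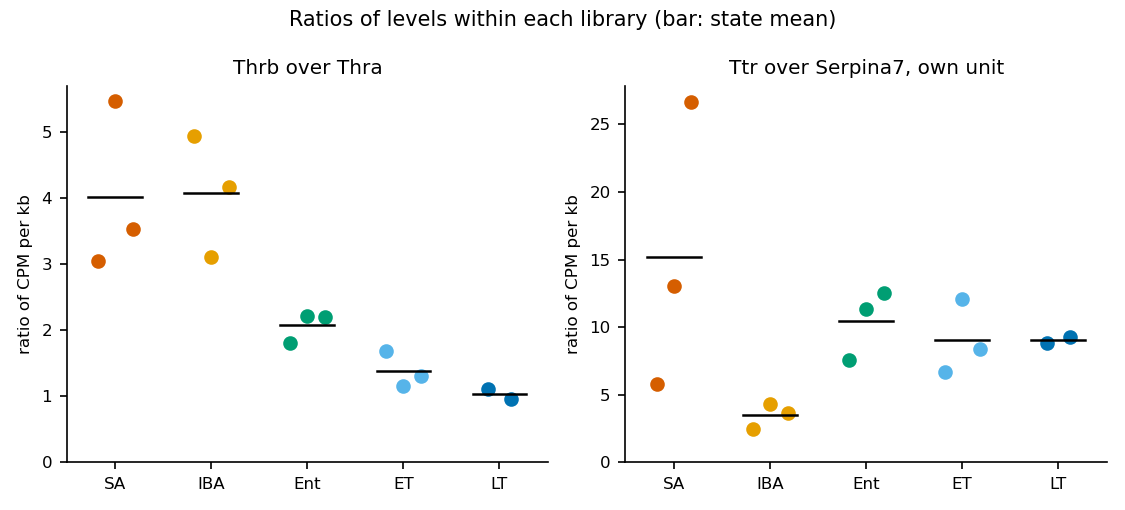
Ratio of CPM per kb (y axes, linear from 0) of Thrb over Thra and of Ttr over the shorter Serpina7 unit in each library, by state (x axes); points are animals and bars are state means. Thrb over Thra runs from a mean of 4.08 in IBA to 1.04 in LT, and Ttr over Serpina7 is lowest in IBA, at a mean of 3.50.

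On the glucocorticoid side, Hsd11b1 had its lowest mean in IBA, at 358 CPM, with LT close to it at 390 CPM. It lies at Itri9:66111112-66162748 on the minus strand and was transcribed at 881, 488 and 695 CPM in SA, 397, 399 and 277 CPM in IBA, 839, 623 and 681 CPM in Ent, 613, 431 and 474 CPM in ET, and 494 and 287 CPM in LT. All SA, Ent and ET libraries were above all IBA libraries, with 1 LT library inside the IBA range and the other above it. Hsd11b1 rose 2.00-fold from IBA to Ent (SE of the log2 fold change 0.26, adjusted p = 0.022), where both Serpina7 units fell. Between SA and IBA the difference was -0.94, with an interval of -1.51 to -0.38 and an adjusted p of 0.055. Between IBA and LT it was 0.13, with an interval of -0.49 to 0.75 and an adjusted p of 0.74. The rise from IBA to Ent had an adjusted p of 0.058 without IBA replicate 1, 0.090 without IBA replicate 3, 0.063 without Ent replicate 1 and 0.12 with season in the fit, and within the season of 3 IBA animals and 1 Ent animal the difference was 0.95.

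Nr3c1 is counted in a unit with the unnamed gene G2359 at Itri1:149386814-149487242 on the plus strand. This unit gave 403, 392 and 579 CPM in SA, 504, 529 and 530.0 CPM in IBA, 445, 554 and 533 CPM in Ent, 422, 499 and 483 CPM in ET, and 551 and 475 CPM in LT. The ranges of all states overlapped except that ET lay below IBA. No difference passed either threshold (adjusted p = 0.73 among the 5 states). Between IBA and LT the log2 difference was -0.02, with an interval of -0.41 to 0.37, and the state means spanned a factor of 1.14.

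Fkbp5 is counted with a copy of 7SK, a small nuclear RNA, in a unit on the minus strand at Itri8:40253004-40348627. How many of the reads belong to 7SK cannot be told from the counts. The unit held 194, 783 and 288 CPM in SA, 109.7, 38.0 and 58.9 CPM in IBA, 200.4, 57.0 and 142 CPM in Ent, 69.7, 152 and 146 CPM in ET, and 120.3 and 35.8 CPM in LT. All SA libraries were above all IBA libraries, and SA replicate 2 stood far above the other SA animals. From SA to IBA the unit fell by 2.62 (SE 0.66, adjusted p = 0.037), a 6.15-fold lower level. Without SA replicate 2 the fall was 1.82 (adjusted p = 0.098), and without IBA replicate 1, 2 or 3 the adjusted p was 0.056, 0.12 or 0.14. It was 0.052 without ET replicate 3, 0.053 with season in the fit and 0.080 with only the groups compared, and within the season of 2 SA and 3 IBA animals the log2 difference was -2.92. The IBA to LT difference was 0.19, with an interval of -1.32 to 1.70 and an adjusted p of 0.84.

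The sequential pairs can be read against the background of all units. From SA to IBA, 0 of 9 units passed 0.001 and 3 passed 0.05 in edgeR, against 0.0158% and 5.22% of all units. From IBA to Ent the counts were 0 and 3, against 0.0316% and 16.1%. From Ent to ET they were 0 and 3, against 2.21% and 28.8%. From ET to LT they were 0 and 0, against 0% and 0.269%. An unadjusted edgeR p at or under 0.05 was held by 5, 5, 3 and 0 of the 9 units in these pairs. Among all 6324 units it was held by 1393, 2056, 2562 and 550. DESeq2 called 3, 2, 2 and 0 of the 9 units at 0.001 in these pairs, and limma-voom called 0 in each. The shares above are those of edgeR, so DESeq2's counts cannot be set against them. From ET to LT DESeq2 called 37 of all units at 0.001, where edgeR and limma-voom called 0.

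**Figure D3:**
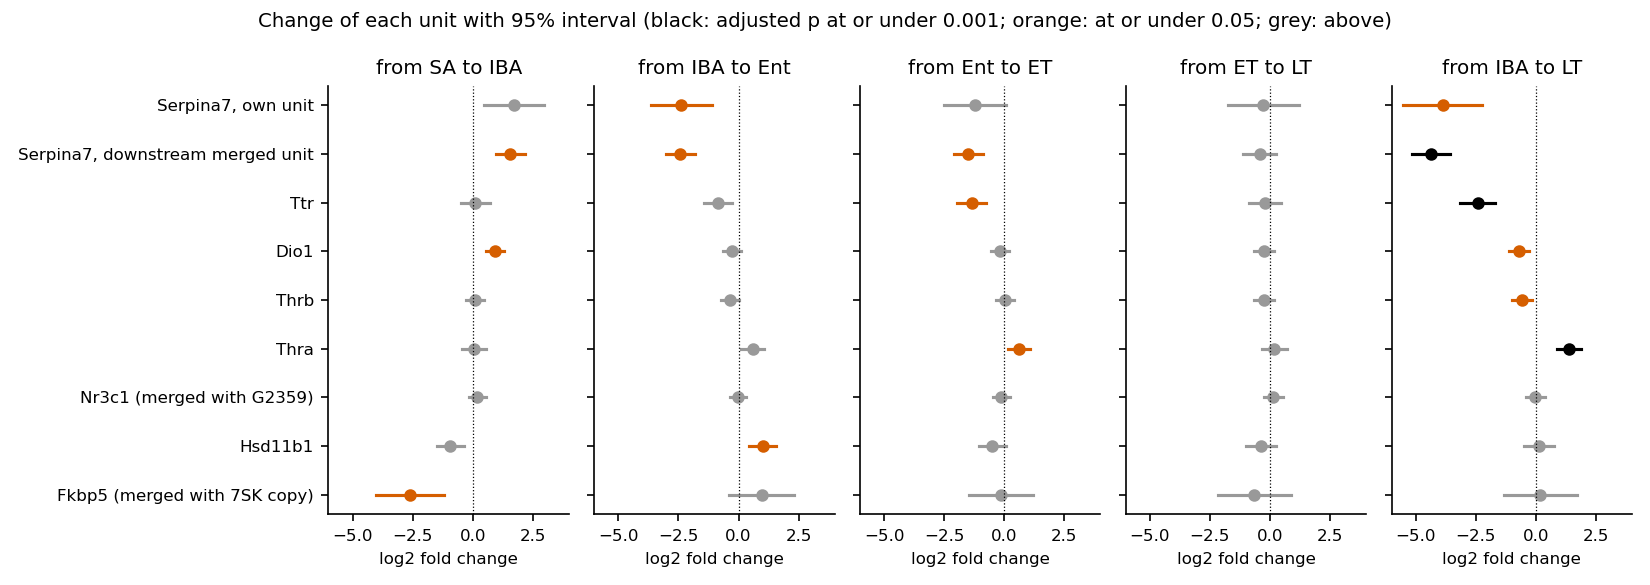
Log2 fold change (x axes, second state minus first) of each unit (y axis) in 5 pairs of states; points are edgeR estimates and lines 95% intervals, black at an adjusted p at or under 0.001, orange at or under 0.05 and grey above. From IBA to LT the estimates run from -4.35 for the longer Serpina7 unit to 1.38 for Thra, and all ET to LT intervals include 0.

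Per kb, Ttr was highest in every state, from 13.4 in LT to 71.5 CPM per kb in IBA, and its range overlapped that of no other unit. In IBA it was followed by the shorter Serpina7 unit at 21.9, Dio1 at 11.3, Hsd11b1 at 6.93, the longer Serpina7 unit at 6.68, Nr3c1 at 5.19, Thrb at 4.23, Thra at 1.07 and Fkbp5 at 0.72 CPM per kb. Neighbours that overlapped in range there were Hsd11b1 and the longer Serpina7 unit, that unit and Nr3c1, and Thra and Fkbp5. In LT the order was Ttr at 13.4, Hsd11b1 at 7.56, Dio1 at 6.91, Nr3c1 at 5.11, Thrb at 2.88, Thra at 2.79, the shorter Serpina7 unit at 1.49, Fkbp5 at 0.82 and the longer Serpina7 unit at 0.33 CPM per kb. Here Hsd11b1 and Dio1, Thrb and Thra, and Serpina7 and Fkbp5 overlapped. The shorter Serpina7 unit thus moved from the second place in IBA to the seventh in LT. Ttr ranked at the 99.6th percentile of all units per kb, and Thra at the 31.5th.

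**Figure D4:**
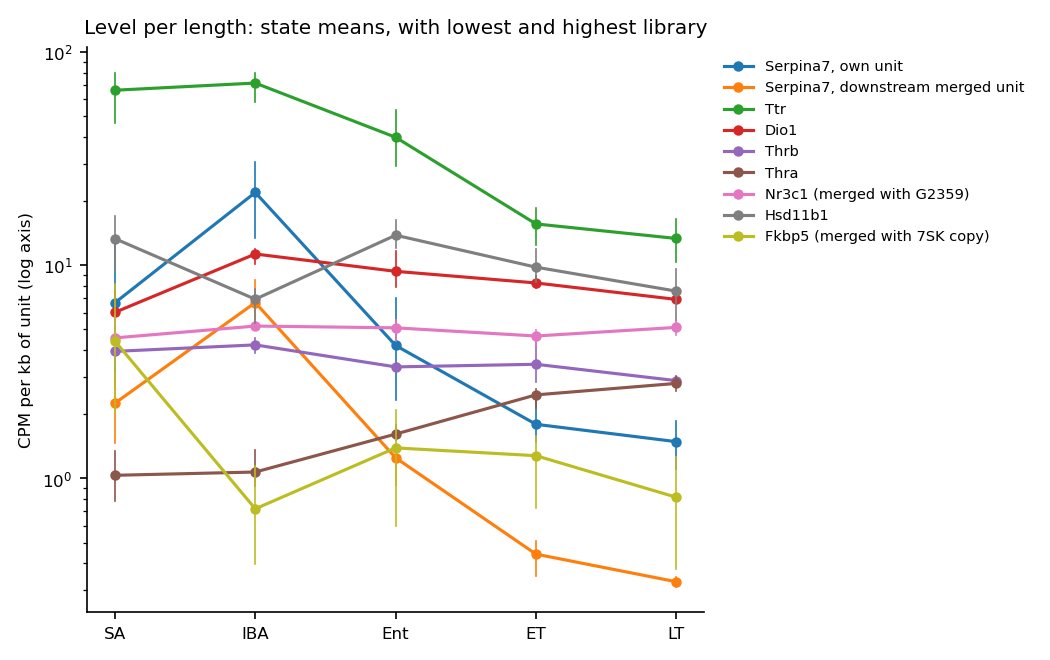
State means of CPM per kb of unit (y axis, log scale) by state (x axis) for the 9 units, with vertical lines from the lowest to the highest library. Ttr is highest in each state, and the shorter Serpina7 unit goes from 21.9 in IBA to 1.49 in LT.

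Over the 14 libraries the carrier units varied together. Pearson's r of log2 CPM was 0.92 between the Serpina7 units, 0.92 between the longer one and Ttr, and 0.84 between the shorter one and Ttr. Thra ran against them, with r of -0.87 to Ttr, -0.83 to the longer Serpina7 unit and -0.68 to the shorter one. Nr3c1 had no r beyond -0.39 with another member, and Hsd11b1 and Fkbp5 had r = 0.49. The points share their state, so these are descriptions. By the same measure the single-gene units most like each member were Cbr4 (r = 0.93) and Spr (0.93) for the shorter Serpina7 unit, LOC106145427 (0.98) and Cbr4 (0.97) for the longer one, Mcfd2 (0.97) and GSTA3_like (0.97) for Ttr, Grin2a (0.89) and Slc22a23 (0.88) for Dio1, and Ppp2r1b (0.90) and Prkar1a (0.89) for Thrb. For Thra they were Mlycd (0.96) and Atg4d (0.95), for Nr3c1 N4bp2l1 (0.83) and Ipo11 (0.82), for Hsd11b1 G40832 (0.86) and Pxmp4 (0.80), and for Fkbp5 Egfr (0.94) and Usp6nl (0.92).

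Other genes of the pathways were taken from lists matched by symbol in the same way. Their counts at 0.05 stand against 62.0% of all units among the states, and 24.8% higher and 25.0% lower from IBA to LT. Among carriers and uptake proteins of thyroid hormone, 12 units were counted, of which 9 passed 0.05 among the 5 states. In LT 7 were lower than in IBA, 0 higher and 5 did not pass, with a median of -1.61 against -0.05 over all units. Besides the members these were Slc10a1, the bile acid importer that also takes up hormone sulphates, which fell by 2.30 (SE 0.33, adjusted p = 0.00016), albumin (-1.59), and, outside the rule for names, the transporters Slco1b3 (-1.85, counted with a U6 copy) and Slc16a10 (-1.64). Without the members the median of the list was -0.78. The hepatocyte marker list moved with it, at a median of -1.53, where the fibrinogen chain gene Fgb fell by 2.28 (adjusted p = 0.0065) and the apolipoprotein gene Apoc3 had a log2 fold change of -2.33 (adjusted p = 0.0060). The part of such a general decrease in the carriers' values was not tested.

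In the list of deiodination, conjugation and breakdown 4 of 6 units passed 0.05 among the states, and from IBA to LT 3 were higher and 1, Dio1, was lower (median 0.57). Sepsecs, an enzyme of selenocysteine synthesis, on which deiodinases depend, rose by 0.56 (SE 0.17, adjusted p = 0.016) and stood at 110 ± 12.2 CPM (SD, n = 3) in IBA and 161 ± 6.43 CPM (SD, n = 2) in LT. Aadat, counted with Mfap3l, rose by 0.70 (adjusted p = 0.034), and Secisbp2, a selenoprotein synthesis factor outside the rule for names, by 0.39 (adjusted p = 0.026). Sts, the steroid sulphatase gene, passed among the states (adjusted p = 0.0097) with its high level in SA, 1261 ± 426 CPM, against 360 ± 114 CPM in IBA (SD, n = 3 each, adjusted p = 0.018 by edgeR).

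Of 15 receptor and coregulator units, 6 passed among the states, and from IBA to LT 3 were higher, 3 lower and 9 did not pass (median -0.05). Rxra, the usual dimer partner of the thyroid receptors, rose by 0.91 (SE 0.32, adjusted p = 0.031), and Rxrg, its relative, fell by 0.95 (SE 0.32, adjusted p = 0.026). Gps2, a corepressor subunit counted with Neurl4, fell by 1.38 (SE 0.24, adjusted p = 0.00048). From the list of known liver targets of thyroid hormone, which includes Dio1 and both Serpina7 units, 18 of 20 units passed among the states and from IBA to LT 6 were higher, 9 lower and 5 did not pass (median 0.08). These are 90.0%, 30.0% and 45.0% of the list, against 62.0%, 24.8% and 25.0% of all units. Without the members, 6 of the remaining 17 units were higher and 6 lower from IBA to LT, with a median of 0.19. Fasn, fatty acid synthase, was higher in LT by 1.91 (SE 0.40, adjusted p = 0.0019). CYP7A1, the first enzyme of bile acid synthesis, went from 100.2 ± 81.3 CPM in SA to 11.8 ± 1.78 CPM in IBA (SD, n = 3 each) and 0.53 ± 0.75 CPM in LT (SD, n = 2).

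Carriers and enzymes of glucocorticoid held 9 units, of which 6 passed among the states and, from IBA to LT, 4 were lower, 0 higher and 5 did not pass (median -0.50). H6pd, which supplies the cofactor of the Hsd11b1 enzyme, fell by 1.15 (SE 0.33, adjusted p = 0.011), and Akr1d1, a steroid reductase counted with the unnamed G15947 and G15948, fell by 1.12 (SE 0.26, adjusted p = 0.0032). Albumin, counted with G10207, fell by 1.59 (SE 0.48, adjusted p = 0.016).

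Among 16 glucocorticoid receptor and coregulator units, 7 passed among the states and 6 were lower, 0 higher and 10 not called from IBA to LT (median -0.27). Those named by the rule are liver transcription factors that work beside the receptor, not parts of it: Onecut1 fell by 2.16 (adjusted p = 0.00034), Stat5b by 1.78 (adjusted p = 5.6e-05), Cebpa by 1.26 (adjusted p = 0.025) and Hnf4a, also a hepatocyte marker, by 1.08 (adjusted p = 0.00063). Of 17 receptor chaperone units 12 passed among the states, with 2 higher, 4 lower and 11 not called in LT (median 0.09). Hsp90aa1, which holds the receptor ready to bind hormone, rose by 2.17 (SE 0.27, adjusted p = 6.0e-05), from 28.9 ± 3.30 CPM in IBA (SD, n = 3) to 130 ± 3.34 CPM in LT (SD, n = 2). Bag1, counted with 2 further genes, rose by 1.70 (SE 0.15, adjusted p = 9.1e-06), and PPP5C, a phosphatase of the same complex, fell by 1.52 (SE 0.46, adjusted p = 0.015). For Hspa1a the difference was 1.54 (adjusted p = 0.054).

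The 29 units of known liver targets of glucocorticoid included 22 that passed among the states, and from IBA to LT 6 were higher, 10 lower and 13 not called (median -0.74). These are 75.9%, 20.7% and 34.5% of the list, against 62.0%, 24.8% and 25.0% of all units. Igfbp1, a binding protein of insulin-like growth factors, fell by 4.87 (SE 0.99, adjusted p = 0.0015), and the gluconeogenic genes G6pc and Pck1 had log2 fold changes of -3.62 (SE 0.58, adjusted p = 0.00031) and -3.15 (SE 0.54, adjusted p = 0.00049). Lpin1, a phosphatidate phosphatase, rose by 1.74 (SE 0.48, adjusted p = 0.010) after a low in IBA, 741 ± 162 CPM against 2758 ± 1595 CPM in SA (SD, n = 3 each). Fkbp5 belongs to this list and to the chaperones and did not pass from IBA to LT. Of the 4 units of clade A serpins, the family of Serpina7 and Serpina6, 2 passed, both of them Serpina7, while Serpina5 differed by -0.28 (adjusted p = 0.56) and the Serpina3 unit by -0.05 (adjusted p = 0.91) from IBA to LT.

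**Figure D5:**
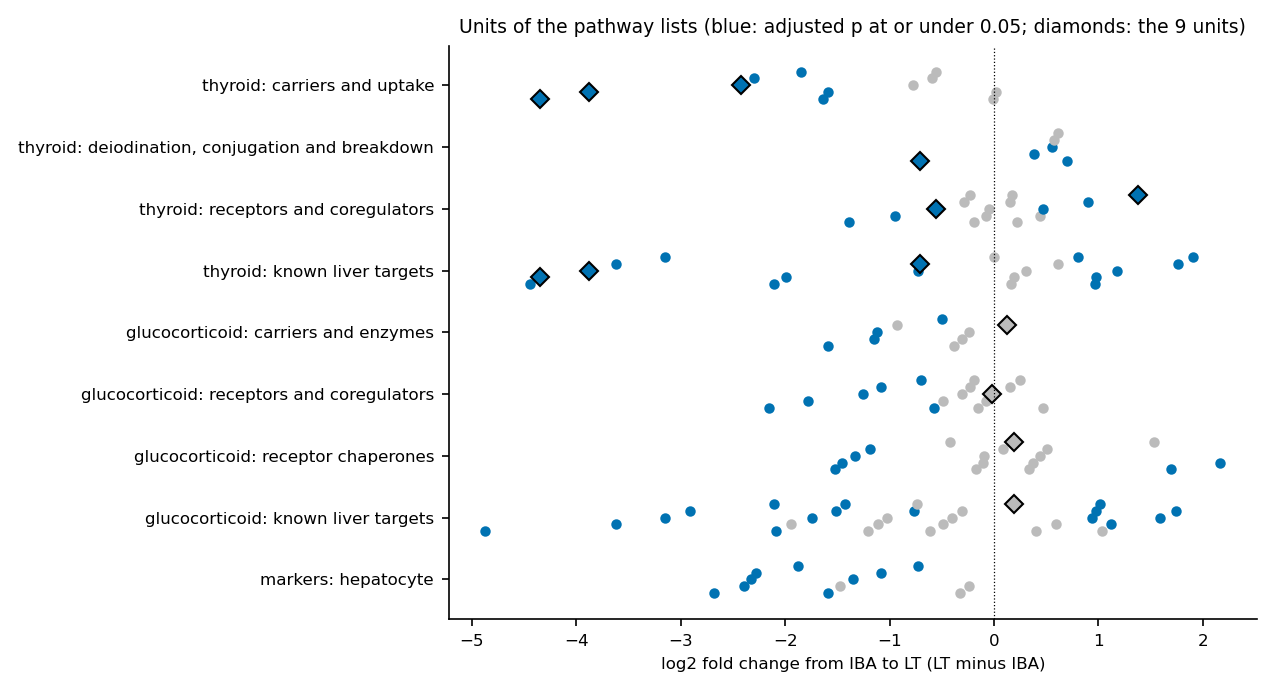
Log2 fold change from IBA to LT (x axis) of each unit in 8 pathway lists and the hepatocyte marker list (y axis; vertical spread within a list has no meaning); blue marks an adjusted p at or under 0.05, grey above it, and diamonds the 9 units followed here. Thyroid carriers and uptake proteins lie at or below 0.02, whereas the chaperones spread from -1.52 to 2.17.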

How the data were processed

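GRO-seq reads had been trimmed by the authors with cutadapt, aligned to the HiC_Itri_2 assembly with BWA and counted with featureCounts as uniquely aligned reads on gene bodies redefined with fstitch. The first 500 nt of each gene body were removed and overlapping genes merged. The deposited values are raw counts per unit and library, not normalized. Gene bodies redefined from reads can run past an annotated gene end, and joined neighbours cannot be divided. Positions and lengths are those in the deposited table.

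All 6324 units and 14 libraries were fitted in edgeR 4.0.16 (R 4.3.3) with TMM factors and a quasi-likelihood model of the 5 states. Benjamini-Hochberg adjustment covered every unit, and calls were made at 0.001, as in the study's methods, and at 0.05. Intervals are at the 95% level. Correlations used log2 CPM with a prior count of 2. Figures were drawn with matplotlib 3.10.9 in Python 3.11.15. The model was also run on simulated counts with known changes in LT and a single spread for all units. That spread was not matched to the members, so the run does not bear on their calls. The lowest count of a member in any library was 49 (Thra), so no member was near 0. Over all units, every replicate pair differed by more than counting noise (chi-square per degree of freedom of at least 14.8). Counting error was not set against the spread between animals for single members.

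Members were found by splitting unit names at the colon. Members and lists were chosen with earlier results of these data known. Named were all members, with log2 fold changes from IBA to LT and in any pair at an adjusted p of 0.05 or under, the 2 single-gene units most like each member, and from each of 9 lists up to 4 units past 0.05 among the states by size of the IBA to LT change, with each direction represented. Other genes named (Nr1d1, Serpina5, Serpina3, Slco1b3, Slc16a10, Secisbp2) were chosen after their values were seen.

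Results were refitted with DESeq2 1.42.0, with limma 3.58.1 (voom), with RLE, upper-quartile and no scaling factors, uniquely mapped reads as library size, at least 10 counts in every library, single-gene units alone, only the groups compared, calls at 0.05 or with a change of at least 2-fold, blocks of equal replicate number, season of collection as a term, and each of the 14 libraries omitted once. Same-numbered animals do not pair by the labels, which give each library an animal of its own. Sequences were not used here.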

Additional observations from a re-analysis of the deposited data

How the results depend on the processing

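Counts of units called at 0.001 moved with DESeq2, with the threshold and with single libraries, whereas limma-voom gave the same count as edgeR in each comparison. Among the 5 states DESeq2 called 7 of the 9 units where edgeR called 4, and an adjusted p of 0.05 gave 7. For SA to IBA, IBA to Ent and Ent to ET, where edgeR called 0, DESeq2 called 3, 2 and 2, and 0.05 gave 3, 3 and 3. For IBA to LT DESeq2 called 4 and 0.05 gave 6 in place of 3. The shares of all units given above are those of edgeR, so DESeq2's counts have no background beside them. Leaving out 1 library gave 2 to 4 units among the 5 states (2 without IBA replicate 1, IBA replicate 3, LT replicate 1 or LT replicate 3), 0 to 0 from SA to IBA, 0 to 1 from IBA to Ent (1 without SA replicate 1 or SA replicate 2), 0 to 0 from Ent to ET, 0 to 0 from ET to LT, and 1 to 4 from IBA to LT (1 without LT replicate 1 or LT replicate 3, which leaves a single LT animal that is assumed to vary like the other groups). Of the members' log2 fold changes, 399 of the refitted values kept direction and side of the 0.001 threshold, 18 gained that call, 10 lost it and 13 changed sign. Of 367 refits of changes called at 0.05, 329 kept that call and 38 lost it, of which 13 were Thra from Ent to ET, 8 Fkbp5 from SA to IBA and 7 Thrb from IBA to LT.

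All 13 changes of sign were in IBA to LT differences that no fit called. For Nr3c1 these were 0.0053 in DESeq2, 0.0054 with RLE factors, 0.077 with total counts, 0.16 with uniquely mapped reads, 0.019 with only the groups compared, 0.20 with season, 0.0039 without Ent replicate 2 and 0.083 without LT replicate 3 (range -0.13 to 0.083 over libraries left out). For Fkbp5 they were -0.10 without IBA replicate 2 and -0.94 without LT replicate 1 (range -0.94 to 0.81). For Hsd11b1 they were -0.17 with season, -0.03 without IBA replicate 3 and -0.32 without LT replicate 1 (range -0.32 to 0.46). The causes were not tested. With season in the fit Thra's rise was 1.08 (adjusted p = 0.027) and the shorter Serpina7 unit's fall 5.48 on the log2 scale (adjusted p = 0.00064). Comparisons with ET could not be fitted with season.

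Replicate numbers did not pair the libraries: same-numbered animals of different states correlated from -0.26 to 0.23, and 3 of 14 libraries were closest to their own number. The shorter Serpina7 unit's fall from IBA to LT passed 0.001 with the replicate block (adjusted p = 8.6e-05) and Thra's rise did not (adjusted p = 0.0017). At 0.05 the block took the call from Thra from Ent to ET (adjusted p = 0.071) and Fkbp5 from SA to IBA (adjusted p = 0.063). With the replicate block 3 units were called among the 5 states, 3 from IBA to LT and 0 in each other pair. Depth limits Thra and Serpina7 most, with 49 and 55 counts in their lowest libraries. Scaling to uniquely mapped reads moved the median of all units from IBA to LT to 0.14 and the share of calls at 0.05 that were higher in LT to 62.6%, against 49.8% with TMM.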
